A study of Mus musculus with 4 samples.

Results

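The MYC network is described here through 10 genes, Myc, Mycn, Mycl, Max, Mxd1, Mxd3, Mxd4, Mxi1, Mnt and Mlx, chosen by name for what their proteins do and found by symbol among the 54842 gene identifiers of the deposited table. All 10 were present once and all 10 were among the 25085 genes with enough counts to be tested. Total RNA, after removal of ribosomal RNA, was sequenced from untreated mouse embryonic fibroblasts (MEF cells) of 2 genotypes, wild-type (wt) and null for topoisomerase 2beta (Top2β-null), with 2 libraries each. Top2β is an enzyme that passes DNA strands through each other to relieve torsion, and the series asked whether such a topological activity takes part in the transcription of satellite repeats. The Top2β-null cells were derived from Top2β-null mice and came from another source than the wt cells, so that origin and genotype cannot be told apart. The sources do not say whether the libraries of a genotype are separate cultures, so the p-values measure the spread between libraries, which may be technical.

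MYC proteins (MYC, MYCN and MYCL) bind DNA and activate transcription as heterodimers with MAX, which has no activation domain of its own. MAX also pairs with the MXD proteins, MXI1 and MNT, which recruit the SIN3 corepressor with its histone deacetylases and repress from the same DNA element, the E-box. MLX is a MAX-like protein that pairs with the glucose-responsive MONDO proteins and with some of the MAX-bound repressors. Growing fibroblasts depend on Myc, and MYCN and MYCL are best known from embryonic neural tissue and from small cell lung tumours.

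The E-box is the element through which these proteins meet their targets, and several members carry one in their own promoter window. In the RefSeq promoter windows (GRCm38.p6, 250 bases before to 50 after a start, 11 windows for 9 members, none for Myc), the letters CACGTG, which read the same on both strands, were found in 4 windows (36.4%), against 7.15% of all 32851 windows. These 4 are shown on the strand of the gene, 30 bases each, with the E-box in capitals.
Max, chr12:76962234-76962263, reverse strand: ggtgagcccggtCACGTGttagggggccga
Mxd4, chr5:34187912-34187941, reverse strand: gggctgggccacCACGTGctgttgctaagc
Mnt, chr11:74830789-74830818, forward strand: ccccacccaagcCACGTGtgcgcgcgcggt
Mlx, chr11:101087238-101087267, forward strand: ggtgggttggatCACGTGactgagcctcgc
The first base of the E-box lies 3 bases before the start of Max, 40 before that of Mlx, 123 before that of Mnt and 219 before that of Mxd4. The windows of Mycn, Mycl, Mxd1, Mxd3 and Mxi1 held no CACGTG. The related letters CACGCG, on either strand, were found in 1 window, that of Mycl. A match in letters is a description of the sequence and does not show binding.

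Counts summed to between 133116830 and 149647278 per library and were scaled with edgeR's TMM factors to a common effective library size, their geometric mean (normalized counts). Top2b itself stood at 18259 and 18465 normalized counts in wt, against 3879 and 3789 in Top2β-null cells. Of the 10 fibroblast markers, 9 were at 10 or more normalized counts in all 4 libraries. The 10 summed to 1301000 to 1325000 in wt and 885700 to 890700 in Top2β-null MEF cells. Fn1, Vim, Col1a1 and Col1a2 led the sum. Col1a1 fell to 38.4% of its wt mean, Col3a1 to 49.7%, Vim to 55.9% and Fn1 to 78.1%, and Col1a2 stood at 97.4%. Dcn rose 31.8-fold, Thy1 4.21-fold, Pdgfrb 3.68-fold and Pdgfra 2.24-fold. The 8 leukocyte markers summed to 2420 to 2501 in wt and 1351 to 1356 in Top2β-null MEF cells, most of it Cd68 and Csf1r. On average Cd68 fell from 1665 to 296, while Csf1r (753 to 970), Itgam (0.988 to 28.3) and Fcer1g (32.0 to 53.7) rose. The defining Ptprc was at most 6.76 and Tyrobp at 0 in every library. The 6 epithelial markers summed to 72.4 to 73.7 normalized counts in wt and 22.8 to 25.8 in Top2β-null MEF cells. The 5 endothelial markers summed to 164.2 to 166.5 and to 252.7 to 257.5, where Kdr rose (70.1 to 204 on average) and Tek fell (39.1 to 6.64). The part of these markers in the members' differences was not tested.

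Between the genotypes, Mycn, Mycl and, by little, Mlx were higher and Mxd4, Mxi1, Mxd1 and Max lower, whereas Myc, Mnt and Mxd3 did not pass the test; the direction of Max and Mxd1 turned with scaling to Hprt. By an adjusted p below 0.05 (quasi-likelihood test of edgeR, Benjamini-Hochberg over 26566 features), 3 members were higher, counting Mycn, and 4 lower in Top2β-null MEF cells. Of all features tested, 32.5% were higher and 32.5% lower by this rule, together 65.0%, so that 7 of 10 members is near the background. The cut-offs of the study's methods also ask for a log2 fold change beyond 1 in either direction and for more than 100 normalized counts on average. By these, 1 member was higher (Mycl) and 1 lower (Mxd4), against 5.27% and 4.97% of all features, together 10.2%. The median log2 fold change was -0.030 over the members and 0.0027 over all features tested.

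**Figure D1:**
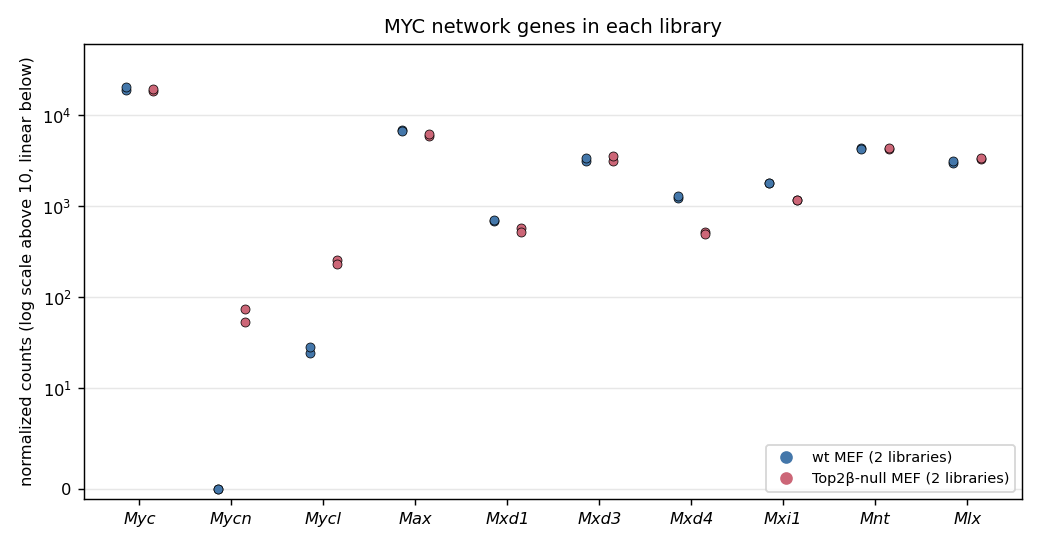
Normalized counts of the 10 members (y axis, logarithmic above 10 and linear below) in each of the 4 libraries, with wt in blue and Top2β-null in red. The wt and Top2β-null points lie apart for Mycn, Mycl and Mxd4 and overlap for Myc, Mxd3 and Mnt.

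Myc (chromosome 15 of GRCm38, 61985391 to 61990374, forward strand) encodes the MYC protein of dividing fibroblasts. It stood at 18626 and 20147 normalized counts in wt, against 18396 and 19299 in Top2β-null cells. The lower wt library lay between the Top2β-null libraries, so the groups overlapped. The log2 fold change was -0.041 (95% interval -0.11 to 0.032, adjusted p = 0.313, edgeR). It lay above 0 when scaled to total counts (0.029) or to Hprt (0.33, adjusted p = 4.34e-08, edgeR) and without Top2β-null replicate 1 (0.033) or wt replicate 2 (0.0027). Without wt replicate 1 the log2 fold change was -0.11 (adjusted p = 0.00401, edgeR), where, as in each fit without a library, the lone library is assumed to vary like the other genotype's pair.

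Mycn (chromosome 12, 12936093 to 12941914, reverse strand) is a MYC paralog of embryonic and neural progenitors. It had 0 counts in both wt libraries (exact Poisson 95% interval 0 to 3.69 in each). The Top2β-null libraries had 70 and 53 counts (54.6 to 88.4 and 39.7 to 69.3, counting error only). The Top2β-null counts are 72.5 and 52.5 normalized counts, and their mean is 21-fold a set floor of 3 counts per wt library. That floor lies under the limit of 3.69 counts, so the fold is not a lower bound at 95%. Mycn met the filter on low counts through the Top2β-null libraries alone, so the direction of its call was fixed by the filter and its p is not given. Its mean was under 100 normalized counts, so it was not called by the cut-offs.

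Mycl (chromosome 4, 122995652 to 123002485, forward strand) encodes the third MYC protein. It stood at 24.2 and 28.0 normalized counts in wt, against 253 and 228 in Top2β-null cells, a 9.20-fold difference of the means. Both Top2β-null libraries lay far above both wt libraries. The log2 fold change came to 3.19 (SE 0.188, adjusted p = 2.81e-10, edgeR). Without Top2β-null replicate 1 it was 3.16, but the mean then fell under 100 normalized counts and no member was called higher by the cut-offs.

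Some markers of neural and pluripotent cells also differed, in both directions. Of the 5 neural markers, Sox2, a factor of neural progenitors and stem cells, had 0 in both wt libraries and 677 and 730 normalized counts in the Top2β-null libraries, and Tubb3 went from 2022 and 2007 to 4322 and 4598. Map2 and Sox10 fell, and Rbfox3 was at most 1.93 in every library. Their sum was 5488 to 5576 in wt and 8061 to 8426 in Top2β-null MEF cells. The 5 pluripotency markers summed to 14.5 to 17.2 and to 55.9 to 63.4 normalized counts. Nanog went from 3.03 and 0.966 to 43.5 and 42.6, the core factor gene Pou5f1 stood at 13.1 and 13.5 in wt, against 9.32 and 19.8 in Top2β-null cells, with overlapping groups, and Zfp42, Dppa4 and Lin28a were at most 1.04 in every library. The part of these genes in the result for Mycn and Mycl was not tested, and in bulk RNA more cells that express a gene and more RNA per cell cannot be told apart.

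Myc nevertheless made up nearly all MYC transcripts when levels were compared per length. In normalized counts per kb of exon, Myc stood at 7140 ± 396 (SD, n = 2) in wt, against 6940 ± 235 (SD, n = 2) in Top2β-null cells, Mycl at 6.47 ± 0.663 and 59.5 ± 4.36, and Mycn at 0 and 19.0 ± 4.29. Mycn and Mycl together reached 84.6 and 72.3 normalized counts per kb in the Top2β-null libraries. The share of Myc among the 3 paralogs per kb was 99.9% in both wt libraries, against 98.8% and 99.0% in Top2β-null cells. This difference of -1.03 percentage points is larger than the pooled SD of 0.113 (exact permutation test, two-sided p = 0.33, which no design of 2 against 2 can go below).

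Max (chromosome 12, 76937269 to 76962201, reverse strand), the shared partner, stood at 6768 and 6552 normalized counts in wt, against 5829 and 6124 in Top2β-null cells. Both Top2β-null libraries lay below both wt libraries, by little. The log2 fold change came to -0.16 (SE 0.0311, adjusted p = 3.6e-04, edgeR), and it turned to 0.21 when libraries were scaled to Hprt. It was -0.086 with the total count and -0.082 without Top2β-null replicate 1 (adjusted p = 0.029 and 0.0395, edgeR). Groups do not overlap for 80.5% of all features, so separation by itself is common here. Within a library, Max stood at 0.274 and 0.246 of the level of Myc per kb in wt and at 0.239 and 0.240 in Top2β-null MEF cells. The means differed by -0.0206 at a pooled SD of 0.0144 (exact permutation test, two-sided p = 0.33, again the lowest possible).

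Mxd4 (chromosome 5, 34173883 to 34187720, reverse strand), a repressor linked to cell cycle exit and differentiation, fell most among the antagonists. It stood at 1213 and 1270 normalized counts in wt, against 511 and 483 in Top2β-null cells. The spread within each pair was small against this gap. The log2 fold change came to -1.32 (SE 0.0626, adjusted p = 1.69e-11, edgeR). It stayed below 0 with every scaling tried, at -1.25 with the total count and -0.95 with Hprt, the latter no longer past the cut-off of 1.

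Mxi1 (chromosome 19, 53310518 to 53375810, forward strand), also called MXD2, stood at 1768 and 1776 normalized counts in wt, against 1157 and 1160 in Top2β-null cells. The replicates were nearly equal and the groups lay apart. The log2 fold change came to -0.61 (SE 0.0489, adjusted p = 1.33e-08, edgeR), or 65.4% of the wt mean, and -0.25 with scaling to Hprt (adjusted p = 3.07e-04, edgeR). Mxd1 (chromosome 6, 86647042 to 86669161, reverse strand), induced as many cell types differentiate, went from 677 and 698 to 575 and 513 normalized counts. Its log2 fold change came to -0.34 (SE 0.0725, adjusted p = 6.48e-04, edgeR), and this direction was lost with scaling to Hprt (0.029, adjusted p = 0.739, edgeR).

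The other antagonists did not pass the test. Mnt (chromosome 11, 74830920 to 74845725, forward strand), the broadly expressed MAX-bound repressor, stood at 4306 and 4250 normalized counts in wt, against 4159 and 4278 in Top2β-null cells. Its log2 fold change was -0.020 (95% interval -0.090 to 0.050, adjusted p = 0.618, edgeR), and with scaling to Hprt it was 0.35. Mxd3 (chromosome 13, 55325168 to 55329823, reverse strand), an MXD protein of S-phase cells, stood at 3102 and 3307 normalized counts in wt, against 3131 and 3535 in Top2β-null cells. The ranges overlapped, and the log2 fold change was 0.057 (95% interval -0.053 to 0.17, adjusted p = 0.352, edgeR). Without Top2β-null replicate 1, Mxd3 had 0.18 (adjusted p = 0.00103, edgeR), and without Top2β-null replicate 2 or wt replicate 1 it lay just below 0.

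Mlx (chromosome 11, 101087277 to 101092207, forward strand), the partner of the MONDO proteins, stood at 2988 and 3066 normalized counts in wt, against 3270 and 3336 in Top2β-null cells. Both Top2β-null libraries lay above both wt libraries. The log2 fold change came to 0.13 (SE 0.0380, adjusted p = 0.00859, edgeR), and without wt replicate 1 it was 0.093 (adjusted p = 0.0822, edgeR). With other scaling it was larger, 0.20 with the total count and 0.49 with Hprt (adjusted p = 2.68e-04 and 3.59e-10, edgeR).

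**Figure D2:**
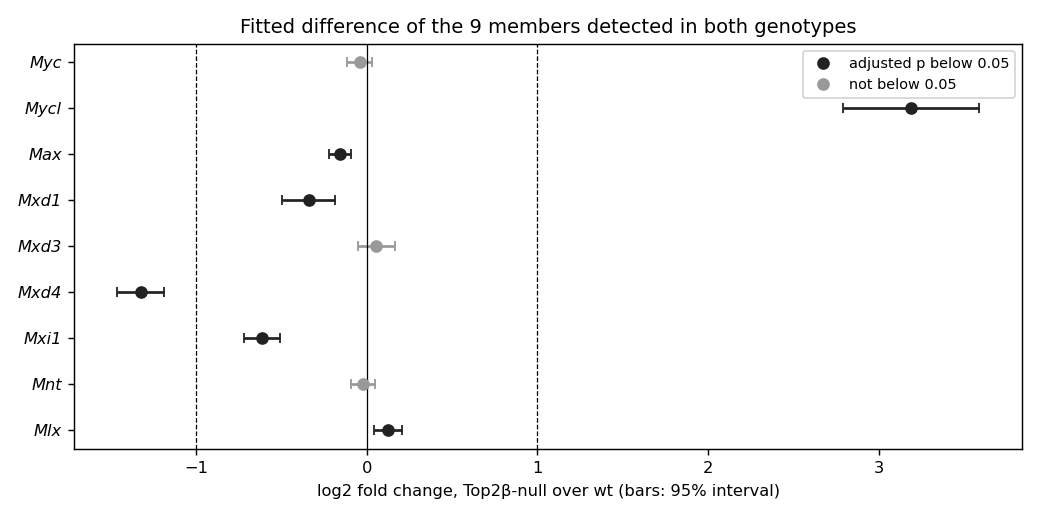
Log2 fold change of Top2β-null over wt MEF cells (x axis) with its 95% interval for the 9 members with counts in both genotypes; black points have an adjusted p below 0.05 and dashed lines mark the cut-off of 1. Mycl (3.19) and Mxd4 (-1.32) lie outside the dashed lines, and the intervals of Myc, Mxd3 and Mnt include 0.

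Some members share exonic bases with a gene on the opposite strand, and whether the counting used strand is not stated. Gm42846, an antisense gene whose 514 exonic bases all lie within Mxd4, stood at 131 and 132 normalized counts in wt, against 42.5 and 35.7 in Top2β-null cells, and so fell with Mxd4. Gm10197 shares 194 bases with Mxi1 and went from 200 and 158 to 122 and 111 normalized counts. Psmc3ip, a recombination factor, shares 385 of the 1999 exonic bases of Mlx and had a log2 fold change of -0.14, opposite to that of Mlx. Prelid1 shares 105 bases with Mxd3 and had a log2 fold change of -0.19 at 23531 and 24237 normalized counts in the wt libraries. How far reads of these pairs can be mixed was not tested.

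Ordered by level per kb of exon, the network was led by Myc in both genotypes, followed by Max, Mlx, Mxd3, Mnt and Mxi1. In wt MEF cells Mxd4 (146 ± 4.75 normalized counts per kb, SD, n = 2), Mxd1 (97.3 ± 2.11), Mycl (6.47 ± 0.663) and Mycn (0) came next, and no neighbours in the order had overlapping libraries. In Top2β-null MEF cells the end of the order was Mxd1 (76.9 ± 6.18), Mycl (59.5 ± 4.36), Mxd4 (58.6 ± 2.27) and Mycn (19.0 ± 4.29). There the libraries of Mycl and Mxd4 overlapped, as did those of Max and Mlx. Myc made up 53.7% ± 1.19 (SD, n = 2) of the summed level per kb of the 10 members in wt, against 53.6% ± 0.00298 (SD, n = 2) in Top2β-null cells.

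**Figure D3:**
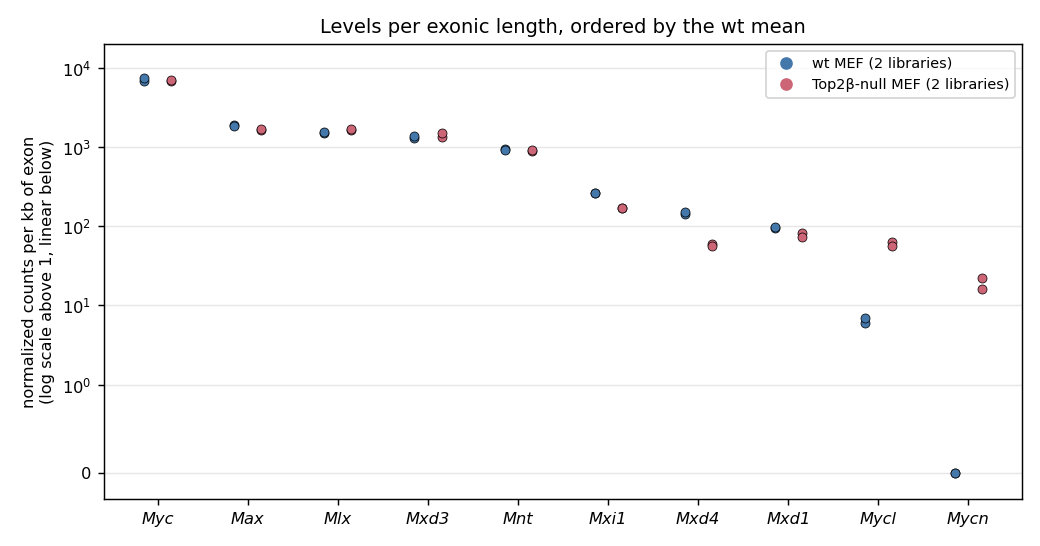
Normalized counts per kb of exon (y axis, logarithmic above 1 and linear below) for each member and library, ordered from left to right by the wt mean. Mycl rises from 6.47 in wt to the level of Mxd4 in Top2β-null MEF cells, 59.5 and 58.6, while the means of the 5 most abundant members keep their order, with overlapping libraries for Max and Mlx in Top2β-null MEF cells.

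The balance of antagonists to Myc was computed within each library and needs no scaling between libraries. The summed level per kb of Mxd1, Mxd3, Mxd4, Mxi1 and Mnt was 0.399 and 0.381 of that of Myc in wt, against 0.374 and 0.382 in Top2β-null cells. The groups overlapped, and the log2 ratio differed by -0.0445 at a pooled SD of 0.0380 (exact permutation test, two-sided p = 0.67). Without division by exonic length, by which long genes weigh more, the ratio was 0.594 and 0.561 in wt, against 0.518 and 0.517 in Top2β-null cells. The groups then did not overlap, and the log2 ratio differed by -0.16 (exact permutation test, two-sided p = 0.33). As a description only, since these 3 are the antagonists that passed the test and were grouped for it, Mxd1, Mxd4 and Mxi1 together went from 498 and 509 to 311 and 300 normalized counts per kb, and their share of the 5 antagonists was 18.1% ± 0.118 (SD, n = 2) in wt, against 11.7% ± 0.890 (SD, n = 2) in Top2β-null cells. Mxd3 and Mnt made up the rest, 81.9% and 88.3%.

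Over the 4 libraries, the genes with the pattern nearest to that of Myc were Zfp703, Zkscan17 and Socs1, at distances of 0.0177, 0.0178 and 0.0199 (Euclidean, on centred log2 normalized counts, among 16655 genes). Nearest to Mycl were Zfp521, Apol9a and A330015K06Rik, at 0.0742, 0.0761 and 0.0888. Nearest to Mxd4 were Tbc1d4, S100a3 and Bcas3, at 0.0255, 0.0275 and 0.0281. With 4 libraries in 2 groups these patterns are little more than a like fold change.

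Other genes of proteins that share partners or DNA elements with the network formed an extended list of 6. Of these, 5 were tested, 4 were higher and 0 lower, with a median log2 fold change of 0.33. All 5 had a mean over 1000 normalized counts, and among all such features 38.2% were higher and 43.3% lower, which is the background for lists of such abundant genes. Mga, a large MAX-binding protein of a repressive Polycomb complex, rose from 12834 ± 182 to 18458 ± 52.4 normalized counts (SD, n = 2, log2 fold change 0.52). Usf1 and Usf2, which bind the same E-box, had 0.39 and 0.33, and Mlxip, the MONDO partner of MLX in most tissues, had 0.051 and did not pass the test. The other MONDO gene, Mlxipl, had at most 4 counts in any library and was not tested.

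The SIN3 corepressor, through which MXD proteins repress, was measured in 14 genes, of which 9 were higher and 5 lower (median 0.20). All 14 had a mean over 1000 normalized counts, where 38.2% of features were higher and 43.3% lower. With scaling to Hprt 14 were higher and 0 lower, where 15210 of all 26566 features were higher and 4342 lower. Arid4b, which binds SIN3 complexes, rose 2.29-fold (log2 fold change 1.19) and was the only one past the cut-offs, against 10.2% of all features. Sap30 had 0.69 and Sin3b, 1 of the SIN3 scaffolds, 0.68. Hdac2, a catalytic subunit, had -0.30 and Rbbp4, a histone-binding subunit, -0.27.

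Of the 11 coactivators that MYC binds, 4 were higher and 3 lower (median 0.0043), and 4 did not pass, against 38.2% and 43.3% of all features with a mean over 1000 normalized counts, as all 11 had. With scaling to Hprt, 11 were higher and 0 lower, where 15210 of all 26566 features were higher and 4342 lower. Trrap, the scaffold of the acetyltransferase complexes that MYC recruits, had a log2 fold change of 0.49, Ruvbl1 0.42 and Ep400 0.39. The acetyltransferase gene Kat2a had -0.30, and Wdr5, which helps anchor MYC on chromatin, -0.24. None of the 11 was past the cut-offs.

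Of 19 genes that act on the stability of the MYC protein, 7 were higher and 8 lower (median 0.017), with none past the cut-offs. Of the 19, 18 had a mean over 1000 normalized counts, with the same background of 38.2% and 43.3%. With scaling to Hprt 15 were higher and 3 lower, where 15210 of all 26566 features were higher and 4342 lower. Pim1, a kinase that stabilizes MYC, fell from 2047 ± 66.4 to 1197 ± 35.2 normalized counts (SD, n = 2, log2 fold change -0.77). Axin1, a scaffold of MYC degradation, had -0.48 and the ubiquitin ligase gene Skp2 -0.45. On the other side stood Btrc (0.37) and the deubiquitinase genes Usp28 (0.30) and Usp37 (0.28).

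Among 13 factors of the Myc promoter or of Myc RNA, 5 were higher and 6 lower (median 0.0078). All 13 had a mean over 1000 normalized counts, where 38.2% of features were higher and 43.3% lower. With scaling to Hprt 9 were higher and 4 lower, where 15210 of all 26566 features were higher and 4342 lower. The 3 genes of the IGF2BP proteins, which bind Myc RNA and protect it from decay, differed from each other. Igf2bp1 went from 17701 ± 198 to 18799 ± 119 normalized counts (SD, n = 2, log2 fold change 0.087), Igf2bp3 fell from 7457 ± 71.2 to 1176 ± 70.2 normalized counts (SD, n = 2, log2 fold change -2.66), and Igf2bp2 rose from 7788 ± 47.3 to 23070 ± 99.3 (SD, n = 2, log2 fold change 1.57). Fubp1, whose protein binds an upstream element that opens under torsion, had 0.22, and Puf60, which encodes a repressor of this element, had -0.57. Ctcf had 0.41 and Ccnt1, a cyclin of transcription elongation, -0.57.

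Of 40 textbook genes activated by MYC, 11 were higher and 25 lower, with a median log2 fold change of -0.19. Of the 40, 39 had a mean over 1000 normalized counts, and among all such features 38.2% were higher and 43.3% lower. Eif4a1, a translation initiation helicase, went from 276700 ± 1380 to 67474 ± 1440 normalized counts (SD, n = 2, log2 fold change -2.04). Bop1, a ribosome biogenesis factor, had -1.11, and Odc1, the rate-limiting enzyme of polyamine synthesis, -0.73. In the other direction, Tert, the catalytic subunit of telomerase, rose from 17.3 ± 2.63 to 954 ± 20.8 normalized counts (SD, n = 2, log2 fold change 5.78), Ccnd2, a D-type cyclin, had 1.13 and Shmt1, an enzyme of folate metabolism, 0.41. With scaling to Hprt the balance was the opposite, with 30 higher and 8 lower and a median of 0.18. There 15210 of all 26566 features were higher and 4342 lower, with a median of 0.37.

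Of 14 textbook genes repressed by MYC, 13 were tested, 4 were higher and 6 lower (median -0.038), against 32.5% and 32.5% of all features. Past the cut-offs were 7 (3 higher and 4 lower), against 10.2% of all features. That share also counts features with a mean under 100, which the cut-offs cannot call, so it is a low background here. Of the 13, 9 had a mean over 1000 normalized counts. Thbs1, a matrix protein that restrains vessel growth, rose 5.51-fold (log2 fold change 2.46), Pdgfrb, a growth factor receptor, had 1.88 and the cell cycle inhibitor gene Cdkn1b 1.15. Ndrg1, a stress and differentiation gene, had -2.40, the cell cycle inhibitor gene Cdkn1a -1.47 and the collagen gene Col1a1 -1.38. Col1a1 and Pdgfrb also stand among the fibroblast markers, which differed in both directions.

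Of 8 glucose-response targets of MLX and the MONDO proteins, 7 were tested, 6 were higher and 1 lower (median 0.40). All 7 had a mean over 1000 normalized counts, where 38.2% of features were higher and 43.3% lower. With scaling to Hprt 6 were higher and 0 lower, where 15210 of all 26566 features were higher and 4342 lower. Arrdc4 and Txnip, arrestin-like proteins that limit glucose uptake, had 1.69 and 1.26. Both were past the cut-offs, by which 5.27% of all features were higher. Txnip rose from 1349 ± 1.46 to 3226 ± 38.9 normalized counts (SD, n = 2). The fatty acid synthase gene Fasn had 0.47, and G6pdx, of the pentose phosphate pathway, had -0.41. Every log2 fold change named in these lists had an adjusted p below 0.05 (edgeR), with the exception of Mlxip. Scaling to Hprt raises each log2 fold change by about 0.37, so that the small negative ones, those of Kat2a, Wdr5, Hdac2 and Rbbp4 and of the neighbours Psmc3ip and Prelid1, lie above 0 there.

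**Figure D4:**
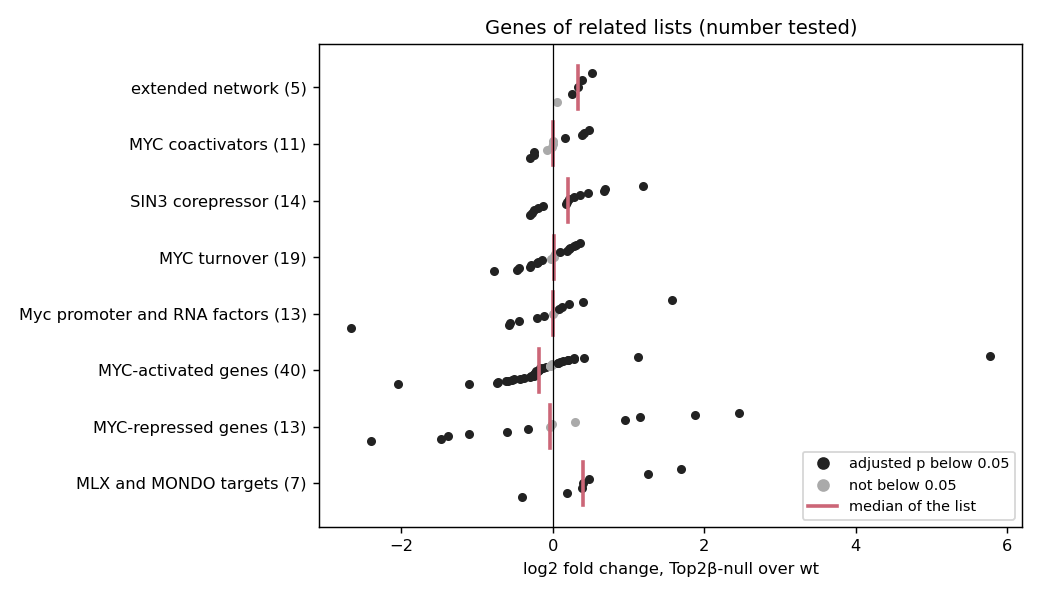
Log2 fold change of Top2β-null over wt MEF cells (x axis) for each tested gene of the 8 related lists, with the number tested in brackets; black points have an adjusted p below 0.05 and the red bar is the median of the list. Medians lie between -0.19 for MYC-activated genes and 0.40 for MLX and MONDO targets, and the MYC-repressed genes spread from -2.40 to 2.46.

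**Figure D5:**
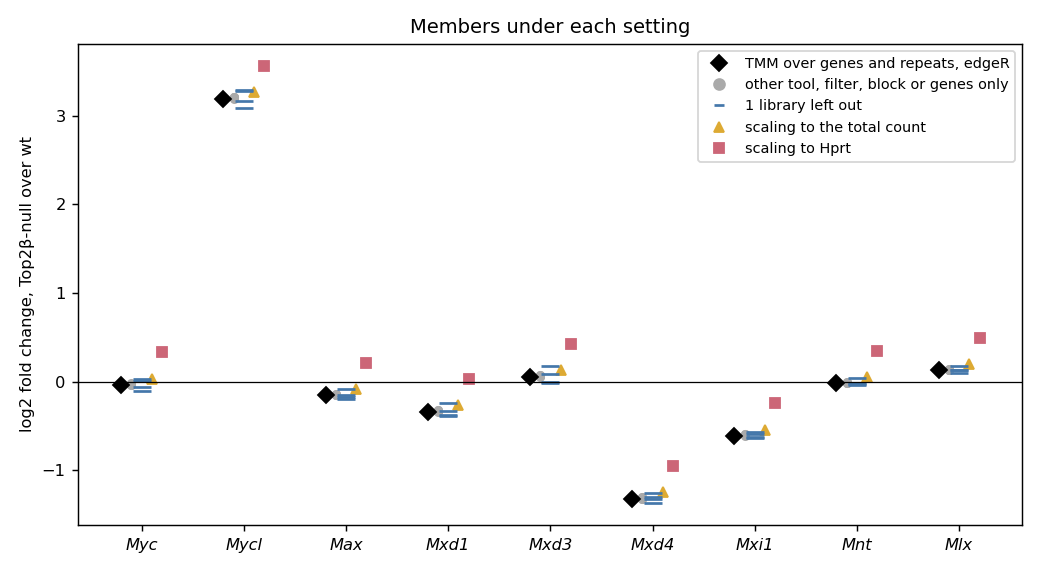
Log2 fold change (y axis) of the 9 members with counts in both genotypes under each processing setting; black diamonds are the values of the text. Mycl lies above 0 in each setting that tested it (all but the minimum of 100 counts in every library), and Mxd4 and Mxi1 lie below 0 in each setting shown, whereas Max and Mxd1 cross 0 with scaling to Hprt and Myc, Mnt and Mxd3 cross it in several settings.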

How the data were processed

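Per the study's methods, reads were trimmed (Trim Galore!) and aligned to mm10 (STAR), multiply aligned reads being kept, and TEtranscripts assigned them to Gencode genes and repeat families. The authors deposited raw counts in 1 column per library, without normalization, and all 4 columns were used. Symbols, positions and exonic lengths come from GENCODE M21 on GRCm38, the assembly also called mm10, and 54495 of 54842 gene identifiers matched. The authors counted with an earlier Gencode release, so exonic lengths, and with them the levels, shares and ratios per kb, may differ from those of the counted models. Ddit3 has 2 identifiers, of which the longer gene was used.

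The 26566 features reaching 10 counts in 2 or more libraries were fitted in R 4.3.3 with edgeR 4.0.16 (TMM over genes and repeats, quasi-likelihood, genotype only), with Benjamini-Hochberg adjustment across this whole set. Standard errors (SE) were derived from the fold change and its F statistic. The cut-offs combined the adjusted p (0.05) with a log2 fold change beyond 1 in size and with over 100 normalized counts on average. Levels per kb divide by the union of exons. Chi-square over its degrees of freedom was 3.65 between the wt and 5.07 between the Top2β-null replicates, more than sampling of reads gives, and each counts as its own library.

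The members and lists were chosen with earlier results of these data known, and no set test was run. From each list, up to 3 genes per direction with the largest absolute log2 fold change were named, among those with an adjusted p below 0.05, a mean over 100 and groups that do not overlap. Members not past the test, Igf2bp1, Mlxip, Mlxipl, genes on the opposite strand and markers are named outside this rule. Alternatives were DESeq2 1.42.0, TMM factors taken from genes alone, scaling to Hprt or to the total count, other filters, the replicate number as a block and each library left out.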

Additional observations from a re-analysis of the deposited data

How the results depend on the processing

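In fits that kept all 4 libraries, 60 alternative values of the members kept their direction and their side of the threshold, 6 reversed and 2 became stronger. Scaling to Hprt, which itself had a log2 fold change of -0.37, moved the median of all features to 0.37, and higher against lower features from 8627 and 8630 to 15210 and 4342. There Myc had 0.33, Max 0.21, Mxd1 0.029, Mnt 0.35 and Mxd3 0.43, 7 members were higher and 2 lower with 0 called lower by the cut-offs, and 96 genes of the related lists were higher and 20 lower, against 50 and 54. With the total count, Myc had 0.029, Mnt 0.050 and Mxd3 0.13 (adjusted p = 0.0397, edgeR; from 1.22e-07 to 0.431 over its other alternatives with all libraries). With at least 100 counts in every library, Mycn and Mycl were not tested, so that 1 member was higher and 0 were called higher. Without division by exonic length, the log2 ratio of antagonists to Myc differed by -0.16 and the share of Myc by -1.45 percentage points.

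Leaving out each library gave -0.11 to 0.033 for Myc, -0.015 to 0.18 for Mxd3, -0.044 to 0.039 for Mnt, -0.19 to -0.082 for Max (the latter without Top2β-null replicate 1), 0.093 to 0.18 for Mlx, and 0 to 1 members called higher. Each of these fits leaves 1 library in a genotype, which is assumed to vary like the 2 of the other, so a pass or a loss there is a weak call. Myc passed the test without wt replicate 1 and Mxd3 without Top2β-null replicate 1, Mlx no longer passed without wt replicate 1, and 0 members were called higher without Top2β-null replicate 1. Mycn could not be fitted without a Top2β-null library, since 1 library does not meet the filter. The cause of these changes was not tested. For the lists, 13 of 224 counts moved by over 1.5 times and 25 of 56 medians by more than the replicate spread with all libraries kept, against 0 of 128 counts and 19 of 32 medians with a library left out. With the number as a replicate block, Myc had -0.040, Mycl 3.19 and Mxd4 -1.32, and no call on a member changed. The deviations of libraries with the same number correlated at 0.00373 over 16436 features, and nothing shows that the numbers pair the libraries. At 0 to 70 counts, depth limits Mycn to a fold over a set floor.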
